A study of Mus musculus with 12 samples.

Results

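The genes of mTOR and of the proteins that bind it or act directly upon it were followed in mouse skin: 10 genes chosen by name, of 52636 genes in the count table. They are Mtor itself, Rptor, Rictor, Mlst8, Akt1s1 and Deptor for the 2 complexes, Tsc1, Tsc2 and Rheb for the switch above them, and Rps6kb1 for the kinase directly below. RNA was sequenced from mouse skin in 4 groups of 3 libraries each. By the study's methods, mice given intraperitoneal rapamycin were female BALB/c and LL37 was injected at 8 weeks of age. These are taken here to hold for the mice sequenced. The groups were control, control+RAPA, LL37 and LL37+RAPA. LL37 is the human cathelicidin peptide, injected into the dermis of the back over 2 days to give a rosacea-like inflammation, and the groups without it got the vehicle at the same site. RAPA is rapamycin, injected intraperitoneally into BALB/c mice at 4 mg/kg per day. The labels do not restate the dose or route for the mice sequenced. By the study's figure legend, the control and LL37 groups got a vehicle in place of rapamycin. All mice were wild type, and the peptide given was a human one, so that the model rests on a brief exposure to it and not on chronic disease. The libraries of a group are biological replicates according to the study's description, although the labels only number them and do not tie each to a mouse.

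mTOR is a protein kinase that works in 2 complexes. In mTORC1 it is joined by Raptor (Rptor), mLST8 and the inhibitory subunit PRAS40 (Akt1s1), and in mTORC2 by Rictor and mLST8, while Deptor binds and inhibits both complexes. mTORC1 is switched on at the lysosome by the GTPase Rheb, which the TSC1-TSC2 complex holds inactive, and it phosphorylates the S6 kinase encoded by Rps6kb1, among other substrates that govern protein synthesis. Rapamycin, bound to FKBP12, inhibits mTORC1. All of this takes place on protein, and the measurements here are of mRNA in whole skin, where fewer cells of a type and less RNA per cell cannot be told apart.

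Libraries held between 15734559 and 23271784 counts, and all 10 members were among the 17993 genes that passed the filter on low counts. Levels are given as CPM, counts scaled to a common library size after TMM normalization, with SD over 3 libraries, and differences as log2 values from edgeR's quasi-likelihood test across all tested genes. A gene was called higher or lower at a Benjamini-Hochberg adjusted p under 0.05, with no limit on the size of the difference. Markers of epidermis and of fibroblasts were present in every library. The tissue differed in other markers, however: the 14 skeletal muscle genes took 3.41% to 4.92% of counts in control, 3.56% to 5.96% in control+RAPA, 0.00232% to 0.0830% in LL37 and 0.315% to 0.692% in LL37+RAPA, with 1 of the 14 at 0 in every LL37 library. The summed level of 7 adipocyte genes was 348 to 755 CPM in LL37 against 1109 to 2120 in control and 2276 to 2503 in LL37+RAPA, and that of 7 neutrophil genes was 252 to 2440 CPM in LL37 against 9.84 to 72.9 in control. LL37 replicate 3 stood apart from the other LL37 libraries. On the first principal component, with 68.3% of the variance, it lay at 64.4, whereas replicates 1 and 2 lay at 133 and 129, and it had the highest muscle share and the lowest neutrophil level of its group; where leaving it out changed a call given here or moved a called difference by more than 1.5-fold, the value without it is given as well.

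The promoters of the 4 members that were lower together in LL37 skin are shown first, since they are the regions from which those transcripts start. The RefSeq windows on GRCm38.p6 run from 250 bases before to 50 bases after each annotated start, and 9 of the 10 members had one (Deptor did not). Capitals mark letters of the motifs searched for on both strands: the E-box CACGTG, the GC box GGGCGG, the CCAAT box CCAAT, the cAMP response element TGACGTCA, the ETS core CCGGAAG and the TATA box TATAAA, none of which is contained in another. Mtor lies on the plus strand at chr4:148448332-148448631, Akt1s1 on the plus strand at chr7:44850122-44850421, Tsc1 on the plus strand at chr2:28640983-28641282 and Tsc2 on the minus strand at chr17:24632578-24632877.
Mtor: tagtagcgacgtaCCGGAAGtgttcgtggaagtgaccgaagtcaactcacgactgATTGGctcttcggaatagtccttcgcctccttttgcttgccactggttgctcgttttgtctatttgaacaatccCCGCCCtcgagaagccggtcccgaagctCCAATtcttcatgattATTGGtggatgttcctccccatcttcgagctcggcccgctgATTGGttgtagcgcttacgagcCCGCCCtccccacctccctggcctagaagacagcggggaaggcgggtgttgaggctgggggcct
Akt1s1: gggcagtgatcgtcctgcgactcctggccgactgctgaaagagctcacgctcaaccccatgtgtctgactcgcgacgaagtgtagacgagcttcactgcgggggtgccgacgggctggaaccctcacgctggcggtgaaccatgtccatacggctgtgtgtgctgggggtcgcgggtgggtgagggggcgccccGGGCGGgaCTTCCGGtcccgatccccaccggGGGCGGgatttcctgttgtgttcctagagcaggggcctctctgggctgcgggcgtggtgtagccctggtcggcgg
Tsc1: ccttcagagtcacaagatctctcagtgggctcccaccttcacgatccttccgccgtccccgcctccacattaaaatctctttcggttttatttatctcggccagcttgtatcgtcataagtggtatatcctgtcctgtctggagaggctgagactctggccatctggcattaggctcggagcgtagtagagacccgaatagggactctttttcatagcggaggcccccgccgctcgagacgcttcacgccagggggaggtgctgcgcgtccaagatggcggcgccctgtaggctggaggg
Tsc2: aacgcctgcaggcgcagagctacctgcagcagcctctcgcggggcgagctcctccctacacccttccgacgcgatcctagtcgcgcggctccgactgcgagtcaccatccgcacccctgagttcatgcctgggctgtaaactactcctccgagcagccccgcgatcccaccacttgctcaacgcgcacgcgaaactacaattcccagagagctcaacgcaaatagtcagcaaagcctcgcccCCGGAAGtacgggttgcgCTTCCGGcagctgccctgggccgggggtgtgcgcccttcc
The Mtor window held 2 GC boxes, 4 CCAAT boxes and 1 ETS core. The Akt1s1 window held 2 GC boxes and 1 ETS core, the Tsc2 window 2 ETS cores, and the Tsc1 window none of the 6 motifs. Among all 32851 windows of the same length, an ETS core was found in 8.86%, a GC box in 35.7%, a CCAAT box in 37.4%, an E-box in 7.15%, a TATA box in 13.6% and a cAMP response element in 1.79%. An ETS core was thus present in 3 of the 4 windows shown and in none of the 5 other members' windows; the motifs were chosen with the members' values known, and this is a description of letters only. Of the other members, the Rheb window held 1 E-box and 1 GC box, the Rictor window 4 GC boxes and 1 CCAAT box, and those of Rptor, Mlst8 and Rps6kb1 none. GC content was 56.7% for Mtor, 67.7% for Akt1s1, 57.3% for Tsc1 and 65.0% for Tsc2, where the median window had 52.7%.

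To see how abundant the members were relative to one another, CPM was divided by the exon length of each gene, which gives CPM per kb. That length merges all annotated exons of a gene, so the order between genes also depends on the annotation. In control skin Akt1s1 stood far above the rest at 61.7 ± 3.28 CPM per kb (SD, n = 3). Rheb followed at 10.9 ± 0.337, then Tsc2 at 9.90 ± 0.421, Mtor at 7.66 ± 0.582, Deptor at 6.99 ± 0.672 and Rps6kb1 at 5.11 ± 0.647 CPM per kb. The lower end was made up of Rptor at 4.51 ± 0.466, Tsc1 at 4.12 ± 0.572, Mlst8 at 2.93 ± 0.0442 and Rictor at 2.06 ± 0.0618 CPM per kb. The libraries of Mtor and Deptor overlapped, as did those of Rps6kb1 and Rptor and those of Rptor and Tsc1, whereas the other neighbours in this order did not. Raptor, the defining subunit of mTORC1, was thus represented by more message per length than Rictor, that of mTORC2, in every control library. In LL37+RAPA, Deptor moved from rank 5 to rank 3, at 9.69 ± 0.948 CPM per kb, where it overlapped with Rheb above it. It was at rank 4 in control+RAPA, at 9.17 ± 1.03 CPM per kb, and overlapped there with Tsc2 above it and Mtor below it. In LL37, Mlst8 moved from rank 9 to rank 10, at 2.40 ± 0.293 CPM per kb, where Rictor overlapped with both Tsc1 above it and Mlst8 below it.

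**Figure D1:**
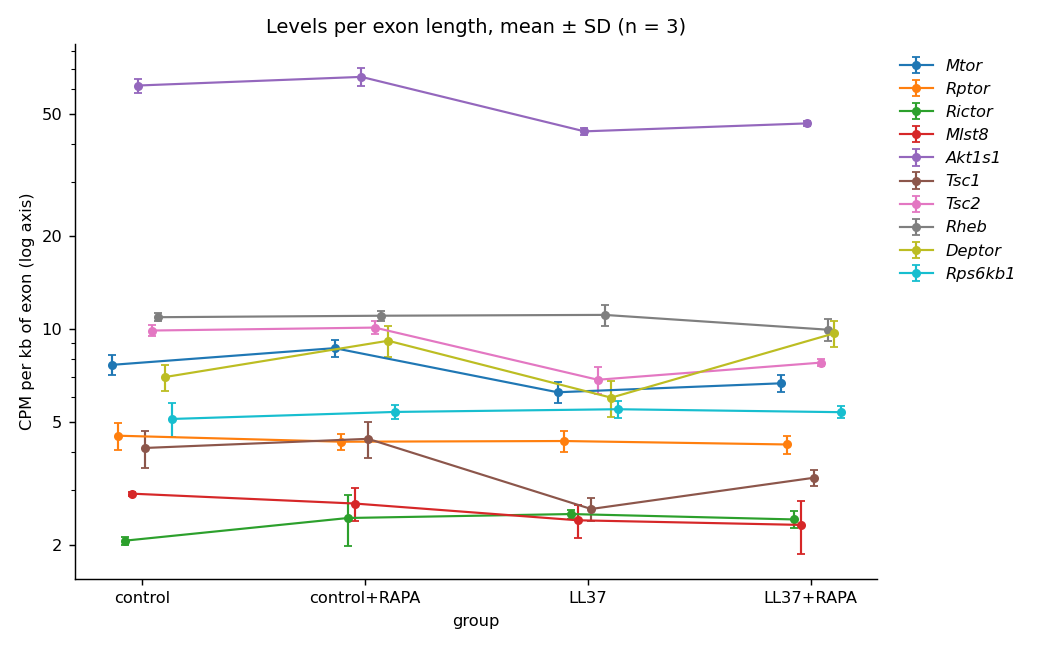
Mean level of each member per exon length (y axis, CPM per kb, log scale) in the 4 groups (x axis), with bars for SD over 3 libraries and lines that only join a gene's groups. Akt1s1 lies above all others in each group, and Deptor moves from 5.99 in LL37 to 9.69 in LL37+RAPA.

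LL37 vs control, the comparison that asks what the peptide does to the skin, showed lower messages for the kinase, for its inhibitory subunit PRAS40 and for both subunits of the TSC brake. Of the 10 members, 0 were higher and 4 were lower, namely Tsc1, Tsc2, Akt1s1 and Mtor. Across all tested genes 42.6% were called in this comparison and 21.6% were called as lower, so that 4 of 10 called in either direction is close to the share among all genes. The median difference of the members was -0.25 (log2), against -0.00492 for all genes tested. The libraries of LL37 and control did not overlap for 6 of the 10 members, where 49.7% of all genes had groups that did not overlap.

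Tsc1 encodes hamartin, the scaffold that stabilizes the TSC complex, and it had the largest difference among the members. Its level was 48.5, 42.0 and 55.6 CPM in the control libraries and 28.7, 30.1 and 33.8 CPM in LL37. Every LL37 library was below every control library, and Tsc1 was 1.58-fold lower in LL37 (log2 -0.66 ± 0.13 SE, edgeR adjusted p = 0.00168). Tsc2 encodes tuberin, whose GAP domain turns Rheb off. It was at 98.3, 96.7 and 90.6 CPM in control and at 66.6, 59.1 and 72.1 CPM in LL37, again without overlap. The difference was -0.53 ± 0.09 (log2, SE, edgeR adjusted p = 0.000618). Of the exon bases of Tsc2, 693 (7.20%) are shared with Pkd1 on the opposite strand; Pkd1 was also lower in LL37, by -0.75 (log2, edgeR adjusted p = 0.0149), and since it is not stated whether counting used strand, reads from the shared bases cannot be assigned to either gene.

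Akt1s1 encodes PRAS40, which binds Raptor and restrains mTORC1 until it is phosphorylated by Akt. Its level was 201, 185 and 183 CPM in control and 138, 133 and 133 CPM in LL37, a narrow range within each group and a clear gap between them. The gene was 1.41-fold lower in LL37 (log2 -0.49 ± 0.08 SE, edgeR adjusted p = 0.000489). It shares 89 exon bases (2.90%) with Tbc1d17 on the opposite strand, which was lower by -0.67 (log2, edgeR adjusted p = 0.000959). Mtor, the kinase, was at 82.0, 79.5 and 70.8 CPM in control and 68.1, 58.5 and 62.6 CPM in LL37. The groups were separated by a small gap, and the difference of -0.29 ± 0.09 (log2, SE) passed the threshold with an edgeR adjusted p of 0.0258. This call is the least firm of the 4: without control replicate 1, control replicate 2, LL37 replicate 2 or LL37 replicate 3 the edgeR adjusted p was 0.0801, 0.0562, 0.140 and 0.0648. The call was also lost with a fit of the compared groups alone (edgeR adjusted p = 0.0654) and with no filter on low counts (edgeR adjusted p = 0.0709). Without LL37 replicate 3, Tsc1 was lower by -0.70, Tsc2 by -0.57 and Akt1s1 by -0.45 (log2), each still called.

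The other 6 members did not pass the test in LL37 skin. Rictor, which defines mTORC2, was at 33.9, 34.7 and 36.0 CPM in control and at 41.7, 44.2 and 41.6 CPM in LL37. The 2 groups did not overlap and the difference was 0.29 ± 0.12 (log2, SE), with an edgeR adjusted p of 0.0749. With scaling by library size alone, which moved the median of all genes by 0.08 in this comparison, Rictor was called higher and Mtor was not called, so that 1 member was higher and 3 were lower. Of all 17993 genes, 7784 were called with that scaling, 4582 of them higher. Rictor was also called higher when control+RAPA replicate 2, a library outside this comparison, was left out of the shared fit (log2 0.28, edgeR adjusted p = 0.0190). Mlst8, shared by both complexes, had 12.8, 12.97 and 13.2 CPM in control and 9.20, 11.0 and 11.7 CPM in LL37, a difference of -0.29 ± 0.16 (log2, SE, edgeR adjusted p = 0.172); Bricd5, on the opposite strand, covers 22.5% of its exon bases and had 0 CPM in control. Deptor was at 61.2, 56.5 and 68.4 CPM in control and 61.4, 47.9 and 50.2 CPM in LL37, with overlap.

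Rptor, Rheb and Rps6kb1 showed the smallest differences. Rptor was at 54.8 to 67.3 CPM in control and 53.5 to 62.6 CPM in LL37, with a 95% interval of the log2 difference from -0.28 to 0.17. For Rheb, the direct activator of mTORC1, the interval ran from -0.17 to 0.22 around 0.02, and for Rps6kb1 from -0.12 to 0.33 around 0.10. The positive regulator Rheb and its negative regulators Tsc1 and Tsc2 thus had log2 differences of 0.02, -0.66 and -0.53 in the same libraries. In these libraries the muscle, adipocyte and neutrophil markers moved as well, by the values given above. Their part in the members' differences was not tested. With the muscle genes left out of the scaling, Mtor, Akt1s1, Tsc1 and Tsc2 were called lower and no other member was called. That refit changes the scaling only and cannot show the part of muscle in the tissue.

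**Figure D2:**
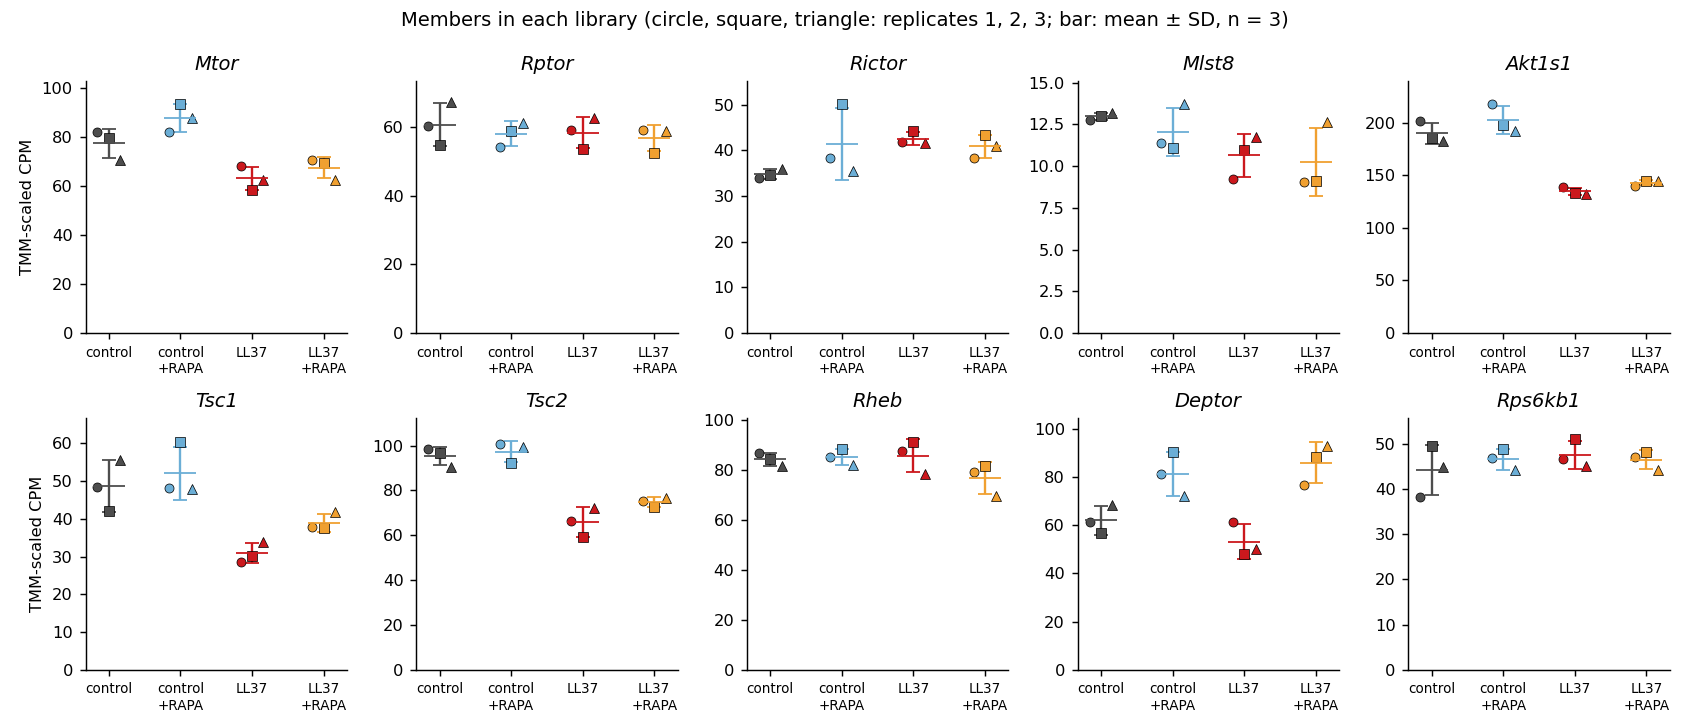
TMM-scaled CPM (y axis, from 0) of each member in each of the 12 libraries, by group (x axis), with horizontal bars for the mean and vertical bars for SD over 3 libraries. Tsc1, Tsc2, Akt1s1 and Mtor lie lower in all LL37 libraries than in all control libraries, and Deptor lies higher in all LL37+RAPA than in all LL37 libraries.

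The effect of rapamycin on LL37-treated skin was read from LL37 vs LL37+RAPA, where a negative value means a lower level in LL37. A single member, Deptor, was called: 0 were higher and 1 was lower in LL37, where 24.2% of all genes were called and 12.4% as lower. Deptor was at 61.4, 47.9 and 50.2 CPM in LL37 and at 76.7, 88.3 and 93.0 CPM in LL37+RAPA. The lowest LL37+RAPA library lay well above the highest LL37 library, and Deptor was 1.62-fold lower in LL37 than in LL37+RAPA (log2 -0.69 ± 0.13 SE, edgeR adjusted p = 0.00414). Without LL37 replicate 3 the difference was -0.65 (log2, edgeR adjusted p = 0.00415). Gm9920, a gene on the opposite strand, covers 3.41% of Deptor's exon bases and was at 0.773 CPM in control.

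Tsc1 stood between the other groups when rapamycin was given with LL37. Its LL37+RAPA libraries had 37.7, 37.5 and 41.7 CPM, above all LL37 libraries and below all control libraries. The difference between LL37 and LL37+RAPA was -0.34 ± 0.13 (log2, SE, edgeR adjusted p = 0.0743). Tsc2, with 75.2, 72.6 and 76.8 CPM in LL37+RAPA, also lay between the ranges of LL37 and control, with a difference of -0.18 ± 0.09 (log2, SE, edgeR adjusted p = 0.144) from LL37. Without LL37 replicate 3 both were called lower in LL37 than in LL37+RAPA, Tsc1 by -0.41 (edgeR adjusted p = 0.0341) and Tsc2 by -0.25 (edgeR adjusted p = 0.0463), so that 3 members and not 1 were called. Calls also rose among all genes in that refit, to 6408 of 18396 from 4359 of 17993. Groups did not overlap for 4 of the 10 members, namely Akt1s1, Tsc1, Tsc2 and Deptor, beside 38.3% of all genes. The remaining 6 members had log2 differences between -0.10 (Mtor) and 0.16 (Rheb) with groups that overlapped.

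LL37+RAPA vs control asks what was left of the LL37 difference under rapamycin. Deptor was higher, and Akt1s1 and Tsc2 were lower, where 14% of all genes were called in either direction and 9.01% as lower. Akt1s1 was at 140, 145 and 144 CPM in LL37+RAPA, below all control libraries, by -0.41 ± 0.08 (log2, SE, edgeR adjusted p = 0.00457). Tsc2 was lower by -0.35 ± 0.09 (log2, SE, edgeR adjusted p = 0.0207), a call that was lost when any 1 of the 6 libraries compared was left out (edgeR adjusted p = 0.0503 to 0.0903), with scaling by library size alone (edgeR adjusted p = 0.118) and with no filter on low counts (edgeR adjusted p = 0.0850). Deptor was 1.39-fold higher (log2 0.47 ± 0.13 SE, edgeR adjusted p = 0.0282), and this call was lost without control replicate 1, control replicate 2, LL37+RAPA replicate 2 or LL37+RAPA replicate 3 (edgeR adjusted p = 0.0775, 0.103, 0.0994 and 0.106). Mtor, Tsc1, Mlst8 and Rictor had log2 differences of -0.20, -0.32, -0.34 and 0.23 from control, and none of these 4 was called. Their groups did not overlap. The share of all genes without overlap was not computed for LL37+RAPA vs control, so whether this is unusual cannot be said. This comparison shares its control libraries with the first and its LL37+RAPA libraries with the second, so that their values are not independent.

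Rapamycin without LL37 was compared in control+RAPA vs control. There 0 of 10 members were called by edgeR, as were 0% of all genes, while 1556 genes had an unadjusted p under 0.05; DESeq2 called 109 genes and none of the members. The member with the largest difference was Deptor, at 81.3, 90.5 and 72.2 CPM in control+RAPA against 61.2, 56.5 and 68.4 CPM in control. All 3 treated libraries were above all controls, with a difference of 0.39 ± 0.13 (log2, SE), an unadjusted edgeR p of 0.00955 and an adjusted p of 0.463. No other member reached an unadjusted p under 0.05, and Mtor, at 81.9, 93.4 and 87.8 CPM in control+RAPA, overlapped with its controls.

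In skin given rapamycin, the LL37 difference was read from LL37+RAPA vs control+RAPA. Here 0 members were higher and 4 were lower, again Mtor, Akt1s1, Tsc1 and Tsc2, with 18.6% of all genes called and 10.4% called as lower. Akt1s1 was lower by -0.50 ± 0.08 and Mtor by -0.38 ± 0.09 (log2, SE, edgeR adjusted p = 0.00112 and 0.0159). For Tsc1 the difference was -0.42 ± 0.13 and for Tsc2 -0.38 ± 0.09 (log2, SE, edgeR adjusted p = 0.0380 and 0.0107). This is the comparison that depends most on the scaling: by library size alone the median of all genes moved by 0.18 and Akt1s1 was the 1 member called, while relative to that median Mtor, Tsc1 and Tsc2 stood at -0.38, -0.41 and -0.37. With no filter on low counts Akt1s1 was likewise the 1 member called (edgeR adjusted p = 0.0637 for Mtor, 0.0871 for Tsc1 and 0.0589 for Tsc2). Leaving out single libraries also ended calls here. The call of Tsc1 was lost without any 1 of the 6 libraries compared and, outside them, without control replicate 1 or LL37 replicate 2 (edgeR adjusted p = 0.0561 to 0.165), and that of Mtor without control+RAPA replicate 2 or LL37+RAPA replicate 3 (edgeR adjusted p = 0.0629 and 0.0721), while that of Tsc2 was lost without control+RAPA replicate 1, control+RAPA replicate 3 or LL37+RAPA replicate 2 (edgeR adjusted p = 0.0715, 0.0568 and 0.0508). The count fell from 4 to 2 without any 1 control+RAPA library, LL37+RAPA replicate 2 or LL37+RAPA replicate 3. Calls among all genes fell as well, from 3338 to between 1982 and 2627 in these refits.

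Whether rapamycin moved a member differently in LL37 skin than in control skin was tested as an interaction. By this test 0 of 10 members were called, by edgeR or by DESeq2, and 0 had an unadjusted p under 0.05, where 3.28% of all genes were called. For Deptor the interaction was 0.30 with a 95% interval from -0.09 to 0.69, so that its higher level under rapamycin in LL37 skin is not shown to differ from that in control skin. For Tsc1 it was 0.24 with an interval from -0.15 to 0.63, and for Rictor -0.30 with an interval from -0.67 to 0.07.

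**Figure D3:**
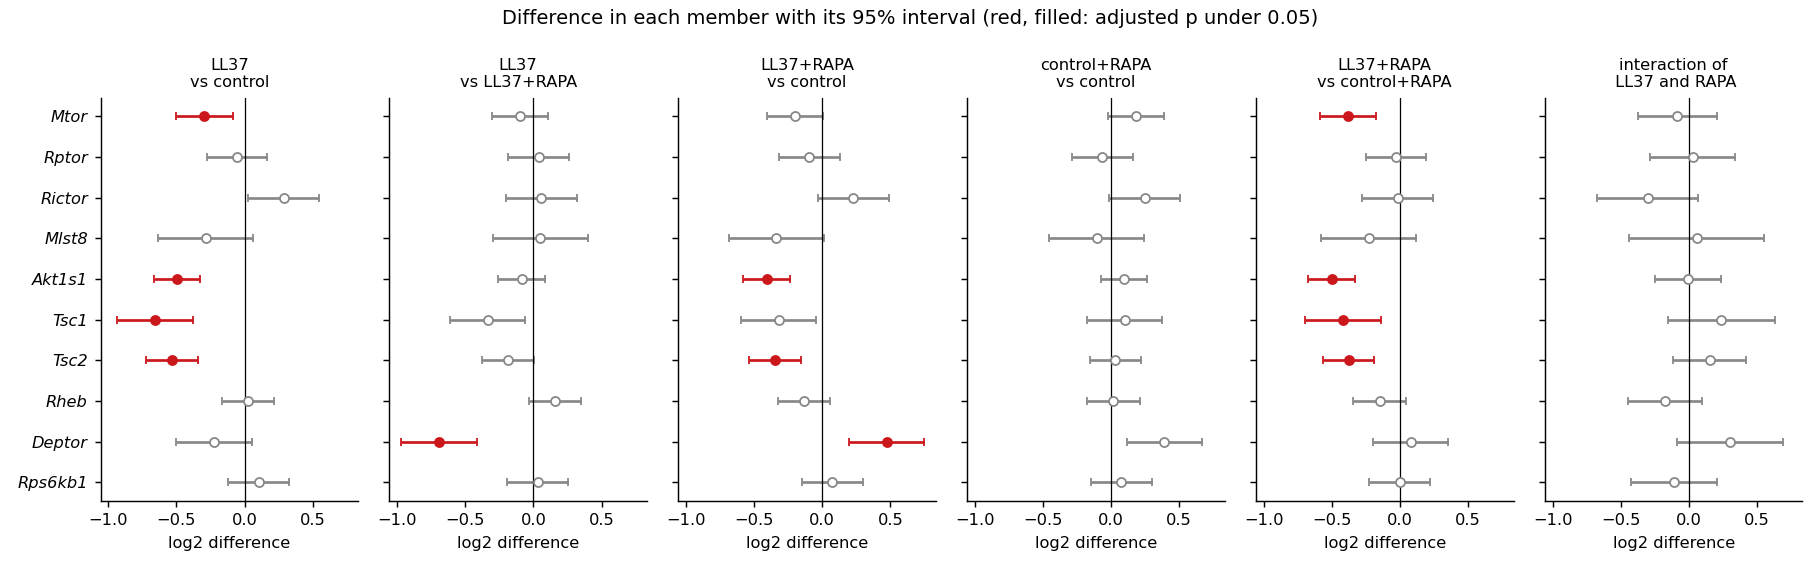
Log2 difference (x axis) of each member (y axis) in the 5 comparisons and the interaction, with bars for the 95% interval; filled red points passed an adjusted p under 0.05. The 4 lower members recur in LL37 vs control and LL37+RAPA vs control+RAPA, and Deptor is the 1 member called in LL37 vs LL37+RAPA.

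Since scaling shifts all genes of a library alike, ratios between 2 members were also formed within each library. They do not depend on the scaling, but with 3 libraries against 3 a two-sided exact permutation test cannot give a p under 0.1. Over the 20 tests made, the lowest adjusted p was 0.286. The ratio of Rptor to Rictor, the subunits that tell mTORC1 from mTORC2, was 2.23, 1.99 and 2.35 in control and 1.78, 1.52 and 1.89 in LL37. It was lower in every LL37 library than in every control library, by -0.34 on the log2 scale (exact permutation p = 0.1, adjusted p = 0.286). LL37+RAPA, with ratios of 1.95, 1.52 and 1.81, also lay below control (-0.32 on the log2 scale, exact permutation p = 0.1), while control+RAPA, with 1.78, 1.48 and 2.17, overlapped with it.

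The ratio of the inhibitor to the kinase, Deptor to Mtor, was 1.24, 1.45 and 1.70 in LL37+RAPA and at most 1.13 in any other library. It was 0.851, 0.811 and 1.101 in control, 1.13, 1.104 and 0.937 in control+RAPA and 1.03, 0.933 and 0.914 in LL37. LL37+RAPA did not overlap with any of the other groups, with log2 differences of 0.67 from control, 0.60 from LL37 and 0.46 from control+RAPA (exact permutation p = 0.1 each, adjusted p = 0.286). For Akt1s1 to Mtor the ratio was 7.66 to 8.50 in control, 6.69 to 7.47 in LL37 and 6.53 to 7.59 in LL37+RAPA, with log2 differences from control of -0.20 and -0.21 and no overlap (exact permutation p = 0.1, adjusted p = 0.286 each). In control+RAPA the ratio was 6.96 to 8.73, which overlapped with LL37+RAPA (log2 difference -0.12 for LL37+RAPA vs control+RAPA, exact permutation p = 0.4, adjusted p = 0.727). Tsc1 to Tsc2, the ratio of the partners in the TSC complex, overlapped between all groups compared. It was 0.353 to 0.499 in control and 0.350 to 0.414 in LL37, where both genes were lower.

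**Figure D4:**
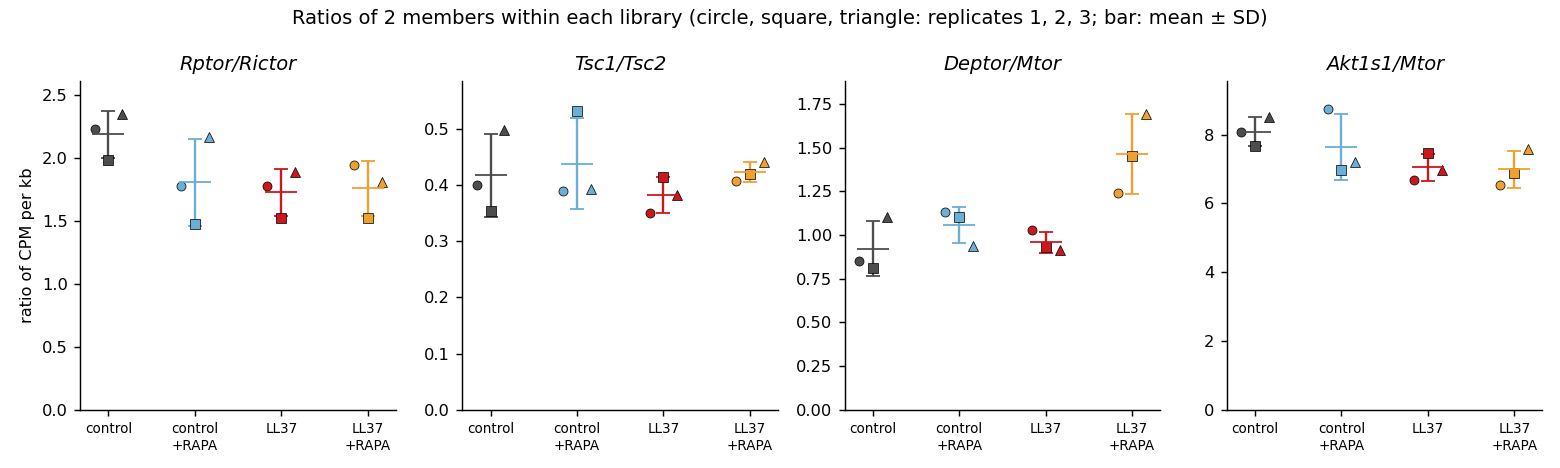
Ratio of 2 members' levels per exon length (y axis, from 0) in each of the 12 libraries, by group (x axis), with bars for mean and SD. Rptor/Rictor lies lower in LL37 than in control, Deptor/Mtor is highest in the LL37+RAPA libraries, and Tsc1/Tsc2 overlaps between groups.

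To place the members' patterns among all tested genes, the genes nearest to a member were found by the root mean square (RMS) difference of centred log2 CPM over the 12 libraries, a smaller value meaning a closer likeness. For Mtor, whose own RMS deviation was 0.202, these were Dctn1, Rgp1 and Sympk with RMS differences of 0.0715, 0.0737 and 0.0738. For Rptor they were Fam114a2, Zfp445 and Letmd1 at 0.0707, 0.0760 and 0.0789, beside its own deviation of 0.0995, which shows how little Rptor moved over the 12 libraries. For Tsc1 they were Sirt3, Mapre3 and Scmh1 at 0.0951, 0.0974 and 0.0989, beside 0.320. Among the members themselves, the closest pair was Akt1s1 and Tsc2 with an RMS difference of 0.0898, and Tsc2 was also the nearest member to Tsc1, at 0.171. Deptor had no near member; its closest, Mtor, was at 0.301, about as far as Deptor's own deviation of 0.313.

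Beside the members, 77 other genes of the pathway were followed in 8 lists. All 77 were tested. In LL37 vs control 17 were higher and 23 lower, in LL37 vs LL37+RAPA 5 and 15, in LL37+RAPA vs control 3 and 9, in LL37+RAPA vs control+RAPA 3 and 15, and in control+RAPA vs control 0 and 0. Among all tested genes 42.6% were called in LL37 vs control, 24.2% in LL37 vs LL37+RAPA, 14% in LL37+RAPA vs control and 18.6% in LL37+RAPA vs control+RAPA, so that 20 of 77 in LL37 vs LL37+RAPA is near the share among all genes, and the counts per list that follow are to be read against these shares. With scaling by library size alone the first count was 20 higher and 18 lower, the third 8 and 6, so that more were higher than lower, and the fourth 9 and 10. Of all 17993 genes, this scaling called 7784, 3240 and 4336 in these comparisons, of which 4582, 1986 and 3142 were higher. For LL37 vs LL37+RAPA the count was 15 higher and 17 lower without LL37 replicate 3, a refit that called 6408 of 18396 genes. It was 3 and 7, 4 and 7, 3 and 6, 5 and 8, and 3 and 9 without LL37 replicate 1, LL37 replicate 2 and LL37+RAPA replicates 1, 2 and 3. Those refits called 2089 of 18403, 2859 of 18370, 2171 of 18437, 3208 of 18418 and 2646 of 18403 genes. For LL37+RAPA vs control it was 3 and 5 without control replicate 1 and without LL37+RAPA replicate 2, where 1880 of 18470 and 1373 of 18418 genes were called.

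Among the 6 other subunits and assembly factors of the complexes, LL37 vs control gave 1 higher and 1 lower. Prr5l, which encodes a protein that binds mTORC2, was at 4.04, 2.46 and 4.32 CPM in control and 13.3, 19.98 and 6.97 CPM in LL37, a 3.70-fold difference (log2 1.89 ± 0.41 SE, edgeR adjusted p = 0.00324). Tti1, a chaperone-like factor for mTOR-type kinases, was lower by -0.38 (log2, edgeR adjusted p = 0.0109). Its partner Telo2 had a log2 difference of 0.07, and Mapkap1, the Sin1 subunit of mTORC2, was at 46.2 ± 4.49 CPM in control and 47.6 ± 3.12 CPM in LL37 (SD, n = 3). Prr5, the paralog of Prr5l, was lower in LL37 than in LL37+RAPA by -0.63 (log2, edgeR adjusted p = 0.0413). The call of Tti1 was lost without LL37 replicate 2 (edgeR adjusted p = 0.0665), and that of Prr5 without any 1 of the 6 libraries compared, control replicate 3 or control+RAPA replicate 2 (edgeR adjusted p up to 0.108).

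Of the genes next to the TSC complex, Rhebl1, a homolog of Rheb, was lower in LL37 than in control (log2 -0.94, edgeR adjusted p = 0.000816) and than in LL37+RAPA (log2 -1.14, edgeR adjusted p = 0.00161). Its level was 7.60, 7.07 and 8.22 CPM in control and 3.81, 3.68 and 4.43 CPM in LL37; the gene shares exon bases with Dhh. Tbc1d7, the further subunit of the TSC complex, was not called, at -0.24 (log2, edgeR adjusted p = 0.241).

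The Rag GTPases and Ragulator, which bring mTORC1 to the lysosome, held the largest difference of all 77 genes in the fit of all libraries, while without LL37 replicate 3 Ddit4l, described further on, was lower still (log2 -5.89 for Ddit4l and -5.85 for Rragd in LL37 vs control). Rragd was at 79.5, 57.4 and 83.2 CPM in control, at 1.03, 1.47 and 3.20 CPM in LL37 and at 8.02, 6.96 and 8.84 CPM in LL37+RAPA. It was lower in LL37 than in control by -5.23 ± 0.32 (log2, SE, edgeR adjusted p = 1.01e-06) and than in LL37+RAPA by -2.03 ± 0.31 (log2, SE, edgeR adjusted p = 0.00205); without LL37 replicate 3 the latter difference was -2.67. Within LL37 its highest level was in replicate 3, the library with the highest muscle share. Rragb was lower too (log2 -1.67, edgeR adjusted p = 0.00891), while Rragc and the lysosomal anchor Lamtor1 were higher by 0.27 and 0.28 (log2, edgeR adjusted p = 0.0179 and 0.0396). The list of 9 thus gave 2 higher and 2 lower in LL37 vs control. The call of Rragc was lost without control replicate 1, control replicate 2 or LL37 replicate 1 (edgeR adjusted p up to 0.0714), and that of Lamtor1 without any 1 library other than LL37 replicate 3 and control+RAPA replicates 1 and 2 (edgeR adjusted p up to 0.133).

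Among 14 genes of the GATOR, KICSTOR and folliculin complexes, which relay amino acid supply to the Rag GTPases, 3 were higher and 2 lower in LL37 vs control. Flcn, folliculin, was at 113, 79.0 and 125 CPM in control and 55.5, 55.6 and 64.9 CPM in LL37 (log2 -0.85, edgeR adjusted p = 0.000786), and its partner Fnip2 was higher by 0.67 (log2, edgeR adjusted p = 0.00555). Nprl3 of the inhibitory complex GATOR1 was lower by -0.53, and Sec13 and Seh1l of GATOR2 were higher by 0.43 and 0.37 (log2, edgeR adjusted p = 0.00304, 0.00653 and 0.0137). Of the 8 amino acid sensors, 2 were higher and 2 lower. Castor2, an arginine sensor subunit, was lower by -1.70 and the sestrin Sesn1 by -1.01, whereas Sesn2, a leucine sensor induced by stress, was higher by 0.96 and Bmt2, a sensor of S-adenosylmethionine, by 0.39 (log2, edgeR adjusted p = 0.000384, 0.00401, 9.04e-05 and 0.0462). Sesn2 was at 22.4, 27.3 and 26.3 CPM in control, 51.5, 48.5 and 47.9 CPM in LL37 and 24.3, 28.6 and 32.5 CPM in LL37+RAPA, so that the LL37 libraries alone stood high. The call of Seh1l was lost without control replicate 1 or LL37 replicate 1 (edgeR adjusted p = 0.0539 and 0.0588), and that of Bmt2 without control replicates 1 or 2, control+RAPA replicate 3, LL37 replicate 1 or any 1 LL37+RAPA library (edgeR adjusted p up to 0.1601).

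In the list of 17 growth factor and stress inputs, 5 were higher and 9 lower in LL37 vs control. The insulin receptor substrates Irs1 and Irs2 were lower by -1.75 and -1.30, and also lower than in LL37+RAPA by -1.25 and -0.87 (log2, edgeR adjusted p = 0.000396, 9.52e-05, 0.00759 and 0.00414). Ddit4l, a stress-induced inhibitor of mTORC1, was at 27.1, 29.4 and 44.1 CPM in control and 0.599, 0.490 and 2.40 CPM in LL37 (log2 -4.78 ± 0.68 SE, edgeR adjusted p = 0.000237), and without LL37 replicate 3 the difference was -5.89 (log2). Pik3cd, the PI3K catalytic subunit of white blood cells, was 3.03-fold higher (log2 1.60, edgeR adjusted p = 0.000198). In the same comparison 6 of 7 macrophage, all 6 tested neutrophil and 1 of 4 tested T cell markers were called higher, beside 3777 of all 17993 genes. Any link of Pik3cd to these markers was not tested.

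Downstream of the complexes, 16 substrates gave 2 higher and 6 lower in LL37 vs control. Lpin1, a phosphatidate phosphatase phosphorylated by mTORC1, was at 92.9, 65.4 and 87.5 CPM in control, 13.2, 10.8 and 16.5 CPM in LL37 and 35.4, 32.1 and 31.7 CPM in LL37+RAPA, with no overlap between the 3 groups (log2 -2.60 ± 0.18 SE for LL37 vs control, edgeR adjusted p = 1.92e-06). Maf1, a repressor of RNA polymerase III, was lower by -0.60, while the translational repressor Pdcd4 and the transcription factor Tfe3 were higher by 0.94 and 0.62 (log2, edgeR adjusted p = 0.000201, 0.000857 and 0.000192). All 4 were also called against LL37+RAPA, in the same direction, the call of Maf1 being lost without any 1 LL37+RAPA library, LL37 replicate 1 or LL37 replicate 2 (edgeR adjusted p up to 0.119). Of 5 genes of the FKBP family, 2 were higher in LL37 vs control. Fkbp1a, which encodes the rapamycin receptor FKBP12, was higher by 0.38 and Fkbp8 by 0.30 (log2, edgeR adjusted p = 0.0176 and 0.0375), and Fkbp5 was lower in LL37 than in LL37+RAPA by -1.06 (log2, edgeR adjusted p = 0.00248). The call of Fkbp1a was lost without control replicate 2 or 3 (edgeR adjusted p up to 0.0696), and that of Fkbp8 without any 1 library other than LL37 replicate 3 and control+RAPA replicates 1 and 2 (edgeR adjusted p up to 0.120).

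**Figure D5:**
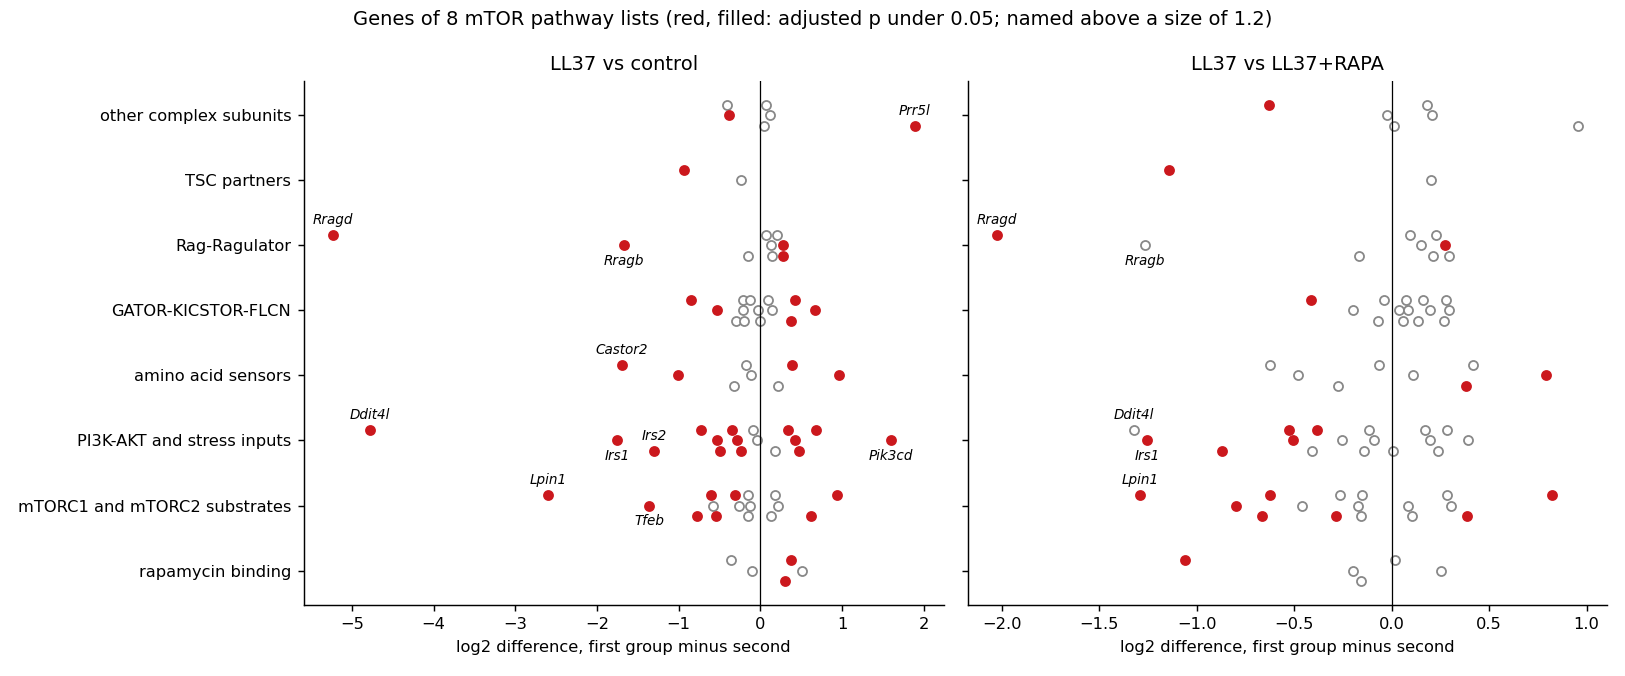
Log2 difference (x axis) of the 77 pathway genes in 8 lists (y axis) for LL37 against control (left) and against LL37+RAPA (right); each point is a gene, filled red where the adjusted p was under 0.05, with a small vertical offset to part the points. Rragd, at -5.23 and -2.03, is the lowest point in both panels.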

How the data were processed

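RNA sequencing of whole mouse skin was measured in 12 libraries (TruSeq kit; 100-bp paired-end reads per the study). The authors deposited raw counts per gene, without normalization or pooling, and all 12 columns were mapped to a group by their names. The study's methods name HTSeq 0.6.0 and DESeq 1.10.1, whereas the submitters' processing notes name HISAT2 2.0.5, StringTie 1.3.3b, featureCounts 1.5.0-p3, DESeq2 1.16.1 and mm10; which counter made the table, and whether it used strand, is not given in the sources used here. Multi-mapping reads and reads from shared exons could therefore have been lost or assigned differently.

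Symbols were matched through GENCODE M21 for 52489 of 52636 genes. All 12 libraries were fitted together in edgeR 4.0.16 (R 4.3.3; TMM, filterByExpr, quasi-likelihood F-test), with Benjamini-Hochberg adjustment over 17993 genes and 95% intervals from the fit. Levels between genes were compared as CPM per kb of merged exon. Ratios were tested by two-sided exact permutation (scipy 1.17.1). Depth was 15734559 to 23271784 counts per library, and counts of 3 or fewer in every library of a group were treated as a floor, which covers counting error only and which of the named genes Bricd5 alone reached; no fold is given for it. The fit was tested on simulated data.

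The members and lists were chosen with earlier results of these data known. Named genes were the 10 members, up to 3 genes of smallest p per pathway list (1 of which is not reported here) for LL37 against control and against LL37+RAPA, and the 3 genes nearest to Mtor, Rptor and Tsc1, the member of largest change in LL37 vs control; Mapkap1, Pkd1, Tbc1d17, Bricd5 and Gm9920 were named after their values were seen. Alternatives were 3 other scalings (one with DESeq2 1.42.0 size factors), 2 other filters, DESeq2, other call limits, the compared groups alone, a replicate block and leaving out each library. Promoter sequences are RefSeq's, on GRCm38.p6.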

Additional observations from a re-analysis of the deposited data

Results flagged for a closer look

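Among the members and named pathway genes, 3 pathway genes, of 77 tested, were called by the interaction term of the edgeR fit, which compares the rapamycin difference in LL37 skin with that in control skin. This is near the 3.28% called among all genes, and no member was called. Of the 77, 4 were higher and 7 lower with DESeq2, which called 1745 of 17993 genes. Without LL37 replicate 3, 6 were higher and 7 lower, where 3145 of 18396 genes were called. The count was 0 without control replicate 1, control+RAPA replicate 3 or LL37+RAPA replicate 1, where 24, 18 and 2 of all genes were called.

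For Rragd the rapamycin difference was larger by 2.19 (log2, edgeR adjusted p = 0.0242) in LL37 skin, where its mean level was 1.90 CPM without and 7.94 CPM with rapamycin, than in control skin, where it was 73.4 CPM without and 65.5 CPM with it. The call was lost in 6 of 12 fits that left out 1 library (control replicates 1 and 3, control+RAPA replicates 2 and 3, LL37+RAPA replicates 1 and 3; edgeR adjusted p up to 0.0697), and the value was 2.83 without LL37 replicate 3. For Lpin1 the value was 1.05 (log2, edgeR adjusted p = 0.0410), with means of 13.5 and 33.1 CPM in LL37 skin and 81.9 and 96.5 CPM in control skin, and 10 of these 12 fits lost the call, all but those without control replicate 2 or LL37 replicate 3 (edgeR adjusted p up to 0.113).

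For Sesn2 the value was -0.93 (log2, edgeR adjusted p = 0.0235), with means of 49.3 CPM in LL37 and 28.5 CPM in LL37+RAPA and of 25.3 and 27.9 CPM in control and control+RAPA. Its call was lost without control replicate 1, control+RAPA replicate 3, LL37 replicate 1 or LL37+RAPA replicate 1 (edgeR adjusted p up to 0.0687). The muscle share, which was 3.41% to 5.96% in the groups without LL37 and 0.00232% to 0.692% in those with it, moved with the levels of Rragd and Lpin1, and its part in these results was not tested.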

How the results depend on the processing

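Each value was recomputed under 20 refits and with other call limits; the cause of any change was not tested. Of 60 member differences, 19 changed sign in some refit, none of them among the 12 that were called. With a limit of 1 on the log2 difference added, the number of members called was 0 in every comparison. At an unadjusted p under 0.05 it was 2 in LL37 vs LL37+RAPA (Deptor and Tsc1) and 1 in control+RAPA vs control (Deptor), where 6838 and 1556 of all 17993 genes passed. In LL37+RAPA vs control+RAPA the number of members called was 1 (Akt1s1) with scaling by library size alone and 1 with no filter on low counts. Among all genes, 4336 of 17993 and 3063 of 31949 were called there. When single libraries were left out, 3 to 5 members were called in LL37 vs control, 1 to 3 in LL37 vs LL37+RAPA, 1 to 3 in LL37+RAPA vs control, 2 to 4 in LL37+RAPA vs control+RAPA, and 0 to 0 in control+RAPA vs control and the interaction. Calls among all genes ranged from 5861 to 8792 in LL37 vs control and from 2089 to 6408 in LL37 vs LL37+RAPA. They ranged from 1373 to 3417 in LL37+RAPA vs control and from 1982 to 4198 in LL37+RAPA vs control+RAPA. In LL37 vs control the log2 difference of Rptor was 0.0292 with scaling by library size alone and -0.143 to 0.0375 with a library left out, that of Rheb -0.00911 to 0.113 and that of the Tsc1/Tsc2 ratio -0.231 to 0.0177.

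Libraries of the same number deviated from their group means with correlations of -0.188 to 0.263, with 4 of 18 pairs over 0.1, so the numbers do not pair them. With the number as a replicate block, the genes called by the interaction fell from 590 to 230, 4 members were called in LL37 vs control, and 5 calls given in the text were lost: Deptor in LL37+RAPA vs control (edgeR adjusted p = 0.0561), Lpin1 in the interaction (0.0568), Bmt2 and Lamtor1 in LL37 vs control (0.0615 and 0.0517) and Prr5 in LL37 vs LL37+RAPA (0.0583). Of the pathway calls in the text, no filter on low counts ended those of Bmt2, Fkbp8, Lamtor1 and Rragc in LL37 vs control and of Maf1 and Prr5 in LL37 vs LL37+RAPA (edgeR adjusted p = 0.0502 to 0.105). A fit of the compared groups alone ended those of Bmt2, Fkbp1a, Fkbp8, Lamtor1, Rragc and Seh1l in the former and of Maf1 in the latter (edgeR adjusted p = 0.0508 to 0.128), and scaling without the muscle genes that of Lamtor1 (edgeR adjusted p = 0.0533). Over all genes, the interaction gave 1745 calls with DESeq2 and 1061 with no filter, control+RAPA vs control 109 and 10 against 0, and LL37 vs LL37+RAPA 2463 with these groups alone against 4359. LL37 vs control gave 3516 with the fold limit against 7668. With scaling by library size alone 3142 of 4336 calls in LL37+RAPA vs control+RAPA were higher, against 1475 of 3338, as were 1986 of 3240 in LL37+RAPA vs control, against 905 of 2527, and 518 of 656 in the interaction, against 387 of 590. With a library left out, the interaction gave from 2 calls (without LL37+RAPA replicate 1) to 3145 (without LL37 replicate 3), and the lowest counts were 2089 in LL37 vs LL37+RAPA, 1373 in LL37+RAPA vs control and 1982 in LL37+RAPA vs control+RAPA. With 3 libraries a group, the SE of a member's log2 difference in LL37 vs control was 0.08 to 0.16. For members that were not called, differences of any size within the intervals given were not excluded.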
